A study of Brassica napus with 11 samples.

Results

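The transcripts BnaA06g10250D and BnaC05g11920D are the 2 homologs of the Arabidopsis gibberellin gene GA3OX1 (AT1G15550) that were picked, from the 97902 transcripts of the table, because their levels lay in opposite tissues of the Brassica napus funiculus. They are called the A homolog and the C homolog below, after the subgenome that each ID names, with A06 and C05 as chromosomes. The levels in the tissues chose them, so these levels and the shares made from them are given as a description, with no test. The Arabidopsis match is that of the study's supplementary lists, and other copies of GA3OX1 without such a match were not analysed here.

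The funiculus is the stalk that ties the seed to the mother plant. Funiculi of cv Topaz, line DH4079, were taken 7 days after pollination, at the globular stage of the embryo, and all groups share this line and stage. The epidermis (3 libraries), the parenchymatous cortex (2 libraries) and the vasculature (3 libraries) were cut out with a laser, and the whole funiculus (WF, 3 libraries) was collected beside them. A biological replicate pooled at least 20 dissected pieces from at least 3 plants, its RNA was amplified before sequencing, and the third cortex library was not sequenced. WF means are over WF1 and WF3, the libraries that the study's methods average, and WF2 is given on its own.

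Gibberellins are growth hormones that promote cell elongation, germination and fruit and seed growth. GA3OX enzymes are 2-oxoglutarate-dependent dioxygenases that carry out the last step of synthesis, from inactive precursors to bioactive gibberellins, and GA2OX enzymes of the same superfamily inactivate them. In Arabidopsis the hormone is bound by the GID1 receptors, which leads to the loss of the DELLA repressors of the GRAS family, and genes of the GASA family respond to it. Brassica napus holds the genomes of Brassica rapa (A) and Brassica oleracea (C), so that most Arabidopsis genes have several homologs in it.

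Depth ranged from 0.34 to 1 of that of WF3 in 10 libraries, as read from the steps between low FPKM values (fragments scaled to transcript length and to the size of the library), and was 0.186 in WF2. WF2 stood apart. Its FPKM values summed to 1834430, against 439770 to 564579 in the other libraries. Of 16213 transcripts with a WF mean of at least 5 FPKM, 5435 (33.5%) were listed at 0 in it. Marker transcripts that the study had named on these libraries followed the tissue labels. Their choice on these same values favoured this order, so it is no separate check of the labels. The summed level of the 5 cortex markers was 2429 to 2784 FPKM in the cortex, 410 to 486 FPKM in the epidermis and 66.3 to 152 FPKM in the vasculature. The 7 vasculature markers summed to 623 to 782 FPKM in the vasculature, 18.7 and 37.1 FPKM in the cortex and 1.84 to 5.64 FPKM in the epidermis. The 4 epidermis markers summed to 1922 to 3667 FPKM in the epidermis, 212 and 697 FPKM in the cortex and 1.12 to 16.6 FPKM in the vasculature. In such bulk tissue, fewer cells with a transcript and less transcript per cell cannot be told apart.

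The A homolog was a cortex transcript. It was at 55.7 and 64.7 FPKM in cortex 1 and 2, from 140 and 320 fragments. In epidermis 1 to 3 it was at 3.78, 7.48 and 13.4 FPKM, from 9, 17 and 44 fragments. In vasculature 1 to 3 it was at 6.37, 2.80 and 5.71 FPKM, from 24, 9 and 32 fragments. Each cortex library was thus above all epidermis and vasculature libraries, while the epidermis and vasculature libraries overlapped. The mean was 60.2 ± 6.37 FPKM (SD, n = 2) in the cortex, 8.20 ± 4.83 FPKM (SD, n = 3) in the epidermis and 4.96 ± 1.90 FPKM (SD, n = 3) in the vasculature, so that the cortex mean was 7.34 times that of the epidermis and 12.1 times that of the vasculature. The fragments are the smallest whole numbers that give the FPKM values of all 11 libraries, to within 0.000215 fragments.

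The C homolog was a vasculature transcript. It was at 36.5, 90.9 and 37.6 FPKM in vasculature 1 to 3, from 135, 287 and 207 fragments. In cortex 1 and 2 it was at 4.86 and 14.2 FPKM, from 12 and 69 fragments. In epidermis 1 to 3 it was at 4.70, 5.37 and 3.71 FPKM, from 11, 12 and 12 fragments. All vasculature libraries lay above all cortex and epidermis libraries, and cortex 1 lay within the range of the epidermis. The mean was 55.0 ± 31.1 FPKM (SD, n = 3) in the vasculature, 9.53 ± 6.61 FPKM (SD, n = 2) in the cortex and 4.59 ± 0.839 FPKM (SD, n = 3) in the epidermis. The vasculature mean was 5.77 times that of the cortex and 12.0 times that of the epidermis.

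**Figure D1:**
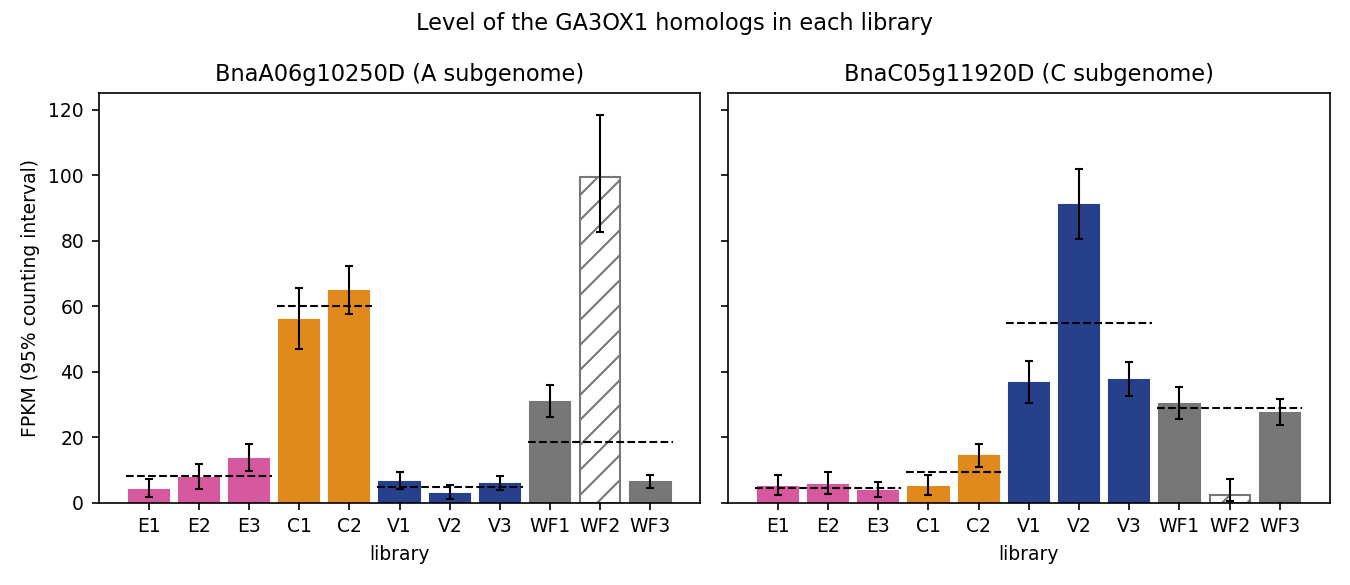
Level of the A homolog (left) and the C homolog (right) in each library, in FPKM, for epidermis (E), cortex (C), vasculature (V) and whole funiculus (WF). Bars are single libraries with 95% exact Poisson intervals of the fragments, dashed lines are group means, and the open hatched bar is WF2, which is in no mean. The A homolog was highest in the cortex among the dissected tissues (55.7 and 64.7 FPKM) and the C homolog in the vasculature (36.5 to 90.9 FPKM).

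Some pairs of libraries of a tissue differed by more than their counting intervals, and others did not. The C homolog was 2.49 times as high in vasculature 2 as in vasculature 1, with a 95% exact counting interval of 2.02 to 3.08, while vasculature 3 was 1.03 times vasculature 1 (0.825 to 1.29). It was 2.92 times as high in cortex 2 as in cortex 1 (1.57 to 5.93). For the A homolog, cortex 2 was 1.16 times cortex 1 (0.95 to 1.43), and epidermis 3 was 3.54 times epidermis 1 (1.70 to 8.24). The peak tissue of the A homolog has only 2 libraries and that of the C homolog 3, so the evenness of the 2 peaks is not compared. The peak level of the C homolog rested most on vasculature 2. Without that library the vasculature mean was still above the cortex mean, by 1.96 on the log2 scale against 2.53 with it. These intervals cover counting error only, and amplified fragments are not independent molecules.

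The levels of both homologs together overlapped between the cortex and the vasculature and were lower in the epidermis. The sum was 60.5 and 78.9 FPKM in the cortex, 42.9, 93.7 and 43.3 FPKM in the vasculature and 8.47, 12.9 and 17.1 FPKM in the epidermis. The cortex values lay within the range of the vasculature, and no epidermis library reached either. That overlap rested on vasculature 2 alone, as vasculature 1 and 3 lay below both cortex libraries. Whether the summed level differs between cortex and vasculature is thus not settled by these libraries. The share of each homolog differed between them without overlap. The A homolog made up 92.0% and 82.0% of the summed FPKM in the cortex, with 95% exact binomial intervals of the fragments of 86.6 to 95.9% and 78.1 to 85.9%. In vasculature 1 to 3 its share was 14.9%, 2.99% and 13.2%, with intervals of 9.92 to 21.6%, 1.40 to 5.69% and 9.34 to 18.4%. The epidermis libraries spread from 44.6% to 58.2% and 78.3%, on only 20, 29 and 56 fragments of both homologs. Their intervals were 23.1 to 68.5%, 38.9 to 76.5% and 65.6 to 88.4%, and all these intervals cover counting error only.

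The 2 transcripts had nearly the same effective length, that of the A homolog being 1.78% greater by the FPKM of 1 fragment, so shares in FPKM and in fragments were close. How reads that map to both homologs were counted is not given in the sources used here, and sharing of reads between them was not tested. Over the tissue libraries the ratio of the A to the C homolog ran from 11.5 in cortex 1 to 0.0308 in vasculature 2, and in WF2 it was 40.6.

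**Figure D2:**
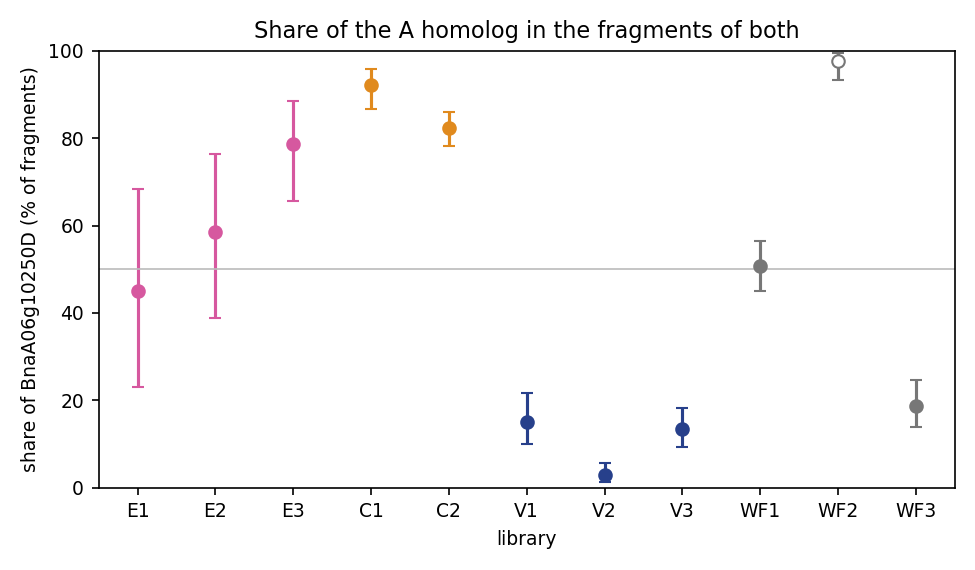
Share of the A homolog among the fragments of both homologs, in percent, in each library of the epidermis (E), cortex (C), vasculature (V) and whole funiculus (WF). Points are single libraries with 95% exact binomial intervals, the grey line marks equal shares, and the open point is WF2. The cortex libraries were at 92.1% and 82.3% and the vasculature libraries at 15.1%, 3.04% and 13.4%, while WF1 and WF3 did not overlap (50.8% and 18.8% of fragments).

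In the whole funiculus the 2 homologs behaved differently between libraries. The C homolog was at 30.3 FPKM in WF1 and 27.5 FPKM in WF3, from 151 and 181 fragments, a ratio of 1.10 (0.880 to 1.37). The A homolog was at 30.7 FPKM in WF1 and 6.28 FPKM in WF3, from 156 and 42 fragments, a ratio of 4.89 (3.46 to 7.06). The even level of the C homolog in these libraries thus stood beside an uneven one of the A homolog. Of the 16213 transcripts with a WF mean of at least 5 FPKM, 525 (3.24%) differed at least as much between WF1 and WF3, 194 of them with the higher value in WF1, and the median ratio was 1.32. The A homolog's share was 50.4% in WF1 and 18.6% in WF3.

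In WF2 the fragments were nearly all of the A homolog, at 124 against 3 of the C homolog, and the FPKM values were 99.4 and 2.45. On the FPKM scale the A homolog was thus above every other library and 5.37 times its mean in WF1 and WF3, and 839 of the 16213 transcripts (5.17%) were at least as high in WF2 by this ratio. The rank of the A homolog turned on the scale. With every library scaled to the same summed FPKM, a setting added after seeing the data, it was at 45.8% of its cortex mean in WF2, below cortex 1 (103%), cortex 2 (96.8%) and WF1 (59.0%) and above WF3 (10.8%), and 1.31 times its mean in WF1 and WF3. The C homolog was lowest in WF2 on both scales. With WF2 in the mean, the A homolog's share in the whole funiculus was 69.4%, or 52.0% after that scaling, against 39.0% without WF2. The cortex markers summed to 2.33% of their cortex mean in WF2 on the FPKM scale and to 0.644% after scaling, while the A homolog was at 165% and 45.8% of its own.

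In order of group means, the A homolog ran from cortex to WF (18.5 ± 17.3 FPKM, SD, n = 2), epidermis and vasculature, and the C homolog from vasculature to WF (28.9 ± 1.93 FPKM, SD, n = 2), cortex and epidermis. For the A homolog, WF, epidermis and vasculature overlapped in their libraries, so that only the place of the cortex was clear of the spread. For the C homolog, vasculature and WF did not overlap, WF and cortex did not overlap, and cortex and epidermis did.

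The low levels outside the peak tissue were set beside markers of that tissue. The C homolog was at 8.54%, 9.77% and 6.74% of its vasculature mean in epidermis 1 to 3, where the summed vasculature markers were at 0.736%, 0.834% and 0.272% of theirs. In cortex 1 and 2 it was at 8.83% and 25.8%, and the markers at 2.77% and 5.48%. The level of the C homolog in the epidermis and cortex was thus above what the marker sum gave in each of these 5 libraries, and cortex 2 had the higher value of both. The A homolog in the vasculature was at 10.6%, 4.65% and 9.48% of its cortex mean, beside 5.83%, 2.54% and 3.37% for the summed cortex markers. Single cortex markers there ran from 1.02 to 15.0%, 0.199 to 10.7% and 0.626 to 11.2%, so the A homolog was within their range. In the epidermis the A homolog was at 6.27%, 12.4% and 22.2%, beside 17.4%, 18.7% and 15.7% for the sum. In the epidermis the A homolog was below the cortex marker sum in epidermis 1 and 2 and above it in epidermis 3. For WF the A homolog was at 51.0% in WF1 and 10.4% in WF3, while the cortex markers were at 21.1% and 33.2%, the opposite order. The part of tissue carried over between cuts in these levels was not tested.

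**Figure D3:**
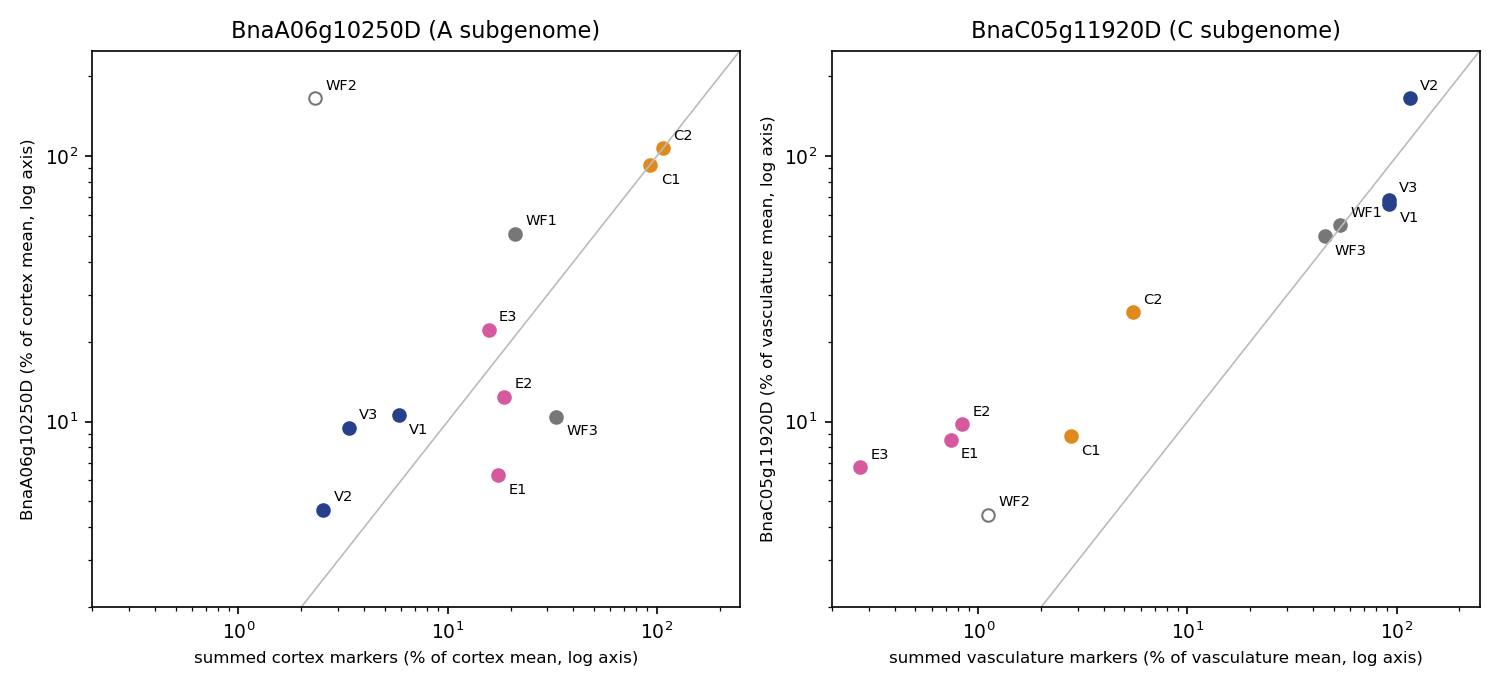
Each homolog in each library as a percentage of its mean in the tissue where it was highest (y axis, log scale), against the summed markers of that tissue as a percentage of their mean there (x axis, log scale). The left panel shows the A homolog and the 5 cortex markers and the right panel the C homolog and the 7 vasculature markers, and points on the grey line have equal percentages. The C homolog lies above the line in all epidermis and cortex libraries, and the A homolog lies far above it in WF2 (165% against 2.33% on the FPKM scale, which the large FPKM sum of WF2 raises for both).

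Other transcripts tied to gibberellin were few in the supplementary lists, which annotate 876 enriched transcripts picked by the study on these libraries and the first 1999 transcripts of a larger sheet. Of 42 Arabidopsis genes of gibberellin synthesis, inactivation, perception and response, 3 had a paired transcript, GA3OX1 among them, and no GA20OX, GA2OX, GID1 or DELLA gene did in these lists. Only the enriched transcripts carry an Arabidopsis match, so a gene without tissue enrichment could not be paired, and its absence here does not mean absence of its transcript. The study itself reports 2 homologs of the DELLA gene RGA-LIKE 1 in the cortex, without tissue specificity, and no expression of RGL2. A transcript of TIP1;1 was added because the study's gene ontology term for gibberellin signaling holds it. For tests between tissues, limma was run on log2(FPKM + 1) over 45300 transcripts, with Benjamini-Hochberg adjustment and a call at an adjusted p under 0.05. The 3 transcripts other than the homologs all come from the enriched lists, which the study picked for tissue differences in these libraries, so their calls were favoured by that choice and nothing is read from their number against the background. By this test, 2 of the 3 were higher in the cortex than in the vasculature, beside 4.25% of all transcripts tested (9.97% in either direction), and none was lower. In the comparison of the epidermis with the vasculature 2 of 3 were higher in the epidermis, beside 6.42% of all (15.6% in either direction). In that of the epidermis with the cortex 1 of 3 was lower in the epidermis, beside 0.106% of all, and 0 of 3 were higher, beside 0.0883% (0.194% in either direction), with all 3 at an unadjusted p under 0.05. The median log2 difference of the 3 was 2.80 for cortex against vasculature, 1.80 for epidermis against vasculature and -3.23 for epidermis against cortex, and that of all transcripts tested was -0.05, -0.06 and -0.01.

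GASA6 (BnaA01g31950D), which encodes a small cysteine-rich peptide of a gibberellin-responsive family and peaked in the cortex as the A homolog did, was at 124 and 283 FPKM in the cortex, 15.9, 12.0 and 35.7 FPKM in the epidermis and 2.23, 2.62 and 2.62 FPKM in the vasculature. No library of one tissue reached into the range of another. It was higher in the cortex than in the vasculature by 5.76 on the log2 scale (SE 0.50, limma adjusted p = 0.000447), and higher in the epidermis than in the vasculature by 2.52 (SE 0.45, limma adjusted p = 0.00521). Between epidermis and cortex the difference was -3.23 (SE 0.50) and missed the threshold (limma adjusted p = 0.0517). In WF1 and WF3 GASA6 was at 28.2 and 20.1 FPKM, and in WF2 it was at 1.69 FPKM.

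TIP1;1 (BnaAnng24130D), a water channel of the vacuolar membrane and 1 of the 5 cortex markers, was at 52.3 and 35.2 FPKM in the cortex, 2.30, 2.41 and 2.49 FPKM in the epidermis and 6.55, 4.69 and 4.88 FPKM in the vasculature. It was higher in the cortex than in the vasculature by 2.80 on the log2 scale (SE 0.30, limma adjusted p = 0.000906) and the epidermis was below the cortex (-3.69, SE 0.30, limma adjusted p = 0.00655). With a term for the replicate number in the fit, TIP1;1 lost the call between epidermis and cortex (limma adjusted p = 0.0844). Its cortex level was of the order of that of the A homolog on this length-scaled measure. GASA10 (BnaA03g09220D), another member of the GASA family, was at 1.26, 3.97 and 2.74 FPKM in the epidermis and listed at 0 in the other 8 libraries. It was higher in the epidermis than in the vasculature by 1.80 on the log2(FPKM + 1) scale (SE 0.36, limma adjusted p = 0.0101) and missed the threshold against the cortex (limma adjusted p = 0.118).

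Of 10 other transcripts described as 2-oxoglutarate and iron dependent oxygenases, 4 were lower in the cortex than in the vasculature by limma, beside 5.73% of all transcripts tested, and 5 were lower in the epidermis than in the vasculature, beside 9.18% of all. The enriched lists, picked on these libraries, hold 3 of the 10, and these 3 were called in both comparisons. Of the other 7, 1 was called for cortex against vasculature (BnaA01g20880D) and 2 for epidermis against vasculature (BnaA01g20880D and BnaA01g28660D), at low levels of at most 3.63 and 1.60 FPKM in the vasculature. The call of BnaA01g28660D was lost on leaving out any epidermis or vasculature library (limma adjusted p of 0.0502 to 0.0939). That of BnaA01g20880D against the cortex was lost on leaving out any tissue library but vasculature 2. Its limma adjusted p was 0.0576 to 0.0891 where the library left out was of the epidermis or vasculature. The epidermis against vasculature call of BnaA01g20880D was lost without epidermis 2 (limma adjusted p = 0.0565) or epidermis 3 (0.0512). By limma none was higher in either comparison and none was called between epidermis and cortex, also not at an unadjusted p under 0.05. The highest was BnaC08g41620D, a homolog of the Arabidopsis ACC oxidase gene ACO3 of ethylene synthesis, at 319, 102 and 437 FPKM in the vasculature, 10.1 and 8.17 FPKM in the cortex and 4.79, 10.04 and 1.33 FPKM in the epidermis. A second homolog of that gene, BnaAnng21950D, was at 44.6, 22.7 and 96.4 FPKM in the vasculature and between 2.80 and 3.87 FPKM in the 5 other tissue libraries. Both homologs of ACO3 were thus highest in the vasculature. Both are among the 3 from the enriched lists, picked for tissue differences in these libraries, so nothing is read from their common tissue. The cortex against vasculature call of BnaC08g41620D rested on both cortex libraries, as the limma adjusted p was 0.00516 with both, 0.0599 without cortex 1 and 0.0671 without cortex 2.

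Of 3 transcripts described as GRAS family transcription factors, the family that includes the DELLA repressors, 2 were higher in the vasculature than in the cortex and the epidermis, beside 5.73% and 9.18% of all transcripts tested. 1 of them, BnaC07g46190D, is in the enriched lists. BnaC07g46190D was at 2.51, 2.95 and 2.81 FPKM in the vasculature and had 0 FPKM in the 5 libraries of the other tissues, a difference of -1.91 on the log2(FPKM + 1) scale for cortex against vasculature (SE 0.32, limma adjusted p = 0.00623). BnaA01g01120D was at 4.50, 10.6 and 6.46 FPKM in the vasculature and at most 2.18 FPKM elsewhere in the tissues (cortex against vasculature -2.13, SE 0.53, limma adjusted p = 0.0369). That call was lost with a pseudocount of 0.5 or 0.1 FPKM, with no filter on low values and with a term for the replicate number in the fit. It was also lost on leaving out epidermis 2, epidermis 3, cortex 1 or any vasculature library. Apart from the fit without cortex 1, the limma adjusted p was 0.0511 to 0.116 in these settings. The third, BnaA01g19870D, passed no comparison, at 0.914 to 8.14 FPKM over the tissues. None of them is described as a DELLA protein. Without cortex 1, the calls of the 3 lists for cortex against vasculature fell from 8 to 5, with BnaA01g01120D (limma adjusted p = 0.187), BnaA01g20880D (0.0994), BnaA09g01150D (0.058) and BnaC08g41620D lost and BnaA01g25140D gained (0.0129). The difference of BnaA01g25140D, a 2-oxoglutarate oxygenase by description, was then towards the cortex, on cortex 2 alone (2.65 FPKM, against 0 in cortex 1).

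Position on the chromosome was not used to choose the homologs, and their neighbours were looked at by ID number. The nearest IDs of the A homolog, BnaA06g10240D and BnaA06g10260D, were at most at 0.334 FPKM and at 0 in the tissue libraries, and the lower neighbour of the C homolog, BnaC05g11910D, was at 0 in them. The upper neighbour BnaC05g11930D was at 30.4 to 49.4 FPKM in all tissue libraries, without the vasculature peak of the C homolog beside it. Of 5 transcripts on each side, 1 of 4 tested near the A homolog (BnaA06g10270D) and 1 of 8 near the C homolog (BnaC05g11890D) were called in any tissue comparison, beside 17.5% of all transcripts tested. Both calls were for epidermis against vasculature. BnaA06g10270D was lower in the epidermis (log2 difference -1.14, SE 0.28, limma adjusted p = 0.0256). BnaC05g11890D was lower in the vasculature, where the C homolog peaked (1.58, SE 0.37, limma adjusted p = 0.0208).

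Farther away, the search was limited to the enriched lists, as only their transcripts carry an Arabidopsis match. The nearest lower-numbered transcript with such a match was a homolog of AT1G14890 on both chromosomes, a member of the invertase and pectin methylesterase inhibitor superfamily. The nearest higher-numbered ones matched different genes, AT1G19715 (BnaA06g13880D) and AT1G16022 (BnaC05g12230D). BnaA06g09680D, on the side of the A homolog, was at 5.13, 3.76 and 12.5 FPKM in vasculature 1 to 3. BnaC05g11140D, on the side of the C homolog, was at 9.72, 6.13 and 16.6 FPKM there. Both had 0 FPKM in the 5 libraries of the other tissues, so this homolog pair shared its tissue while the GA3OX1 pair did not. Both were in the study's vasculature lists by their values in these libraries, so their common tissue follows from that listing. The distance in bases was not measured.

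The transcripts most like each homolog were ranked by Pearson's r of log2(FPKM + 1) over the 8 tissue libraries, WF1 and WF3, among 23346 others with a group mean of at least 5 FPKM. The 10 libraries share their tissue groups, so r is a description. The A and C homolog had r = -0.33 with each other. The first 5 for the A homolog, BnaA07g30790D, BnaC05g08120D, BnaC06g17550D, BnaC09g08190D and BnaC06g20470D, had r of 0.973 to 0.956 and carry no description. Each of them was higher in WF1 than in WF3, an order that the ranking over these same libraries favours. For example, BnaA07g30790D was at 230 and 96.3 FPKM there, beside 265 and 463 FPKM in the cortex and 42.8 to 82.4 FPKM in the vasculature. The described transcripts most like the A homolog were the subtilase BnaC09g18640D (r = 0.925), the extensin family transcript BnaA10g20160D (r = 0.918) and the plasma membrane water channel BnaC04g08090D (r = 0.912). The water channel was at 67.0 and 111 FPKM in the cortex, 6.21 to 30.3 FPKM in the epidermis and 6.63 to 11.3 FPKM in the vasculature.

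The C homolog had more transcripts like it. At r of at least 0.9 there were 1080 (4.63%), against 58 (0.248%) for the A homolog. Its first 5 were BnaCnng46630D, BnaA03g44780D, BnaCnng65200D, BnaCnng70500D and BnaA09g18990D, at r of 0.996 to 0.986. All of them were highest in vasculature 2, as the C homolog was, which the ranking over these same libraries favours. Among the described ones, glucan synthase-like 3 (BnaC04g54260D, r = 0.984), a callose synthase in Arabidopsis, was at 21.4, 85.7 and 22.4 FPKM in the vasculature. Laccase 17 (BnaA02g06580D, r = 0.978), which polymerises lignin in Arabidopsis, was at 34.6, 48.8 and 32.5 FPKM there. A sucrose-phosphate synthase transcript (BnaA02g23460D, r = 0.977), of the sucrose synthesis pathway, was at 37.8, 54.9 and 36.1 FPKM. These 3 were at most at 0.922 FPKM in the epidermis, where the C homolog was at 3.71 to 5.37 FPKM. Others like it had epidermis levels too, such as BnaCnng70500D at 17.5 to 19.9 FPKM and BnaA05g11570D (r = 0.975) at 6.70 to 7.48 FPKM.

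The names in the first 5 depended on the measure. With Spearman's rho in place of r, 2 of the first 5 of the A homolog and 0 of those of the C homolog were kept, and with all 11 libraries 0 and 2.

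A homolog pair split between tissues was uncommon in the enriched lists. Of 145 Arabidopsis genes matched by at least 2 transcripts of these lists, 349 transcripts in all, 5 (3.45%) had homologs with their highest mean in different tissues, and GA3OX1 was 1 of them. The transcripts entered the lists for their tissue pattern in the same libraries, and GA3OX1 was chosen for this pattern. Most listed transcripts were enriched in the vasculature by the study's count, which favours pairs that share it. Homologs without tissue enrichment are not in the lists, so the percentage does not describe homologs at large. The other split genes were AT1G22410 (DAHP synthetase, of the shikimate pathway), AT1G70830 and AT2G01520 (MLP-like proteins) and AT4G23600 (tyrosine transaminase family). Of these, AT4G23600 alone also had homologs split between cortex and vasculature. Its homolog BnaC01g15060D was at 365 and 172 FPKM in the cortex and 66.5, 16.1 and 32.0 FPKM in the vasculature, and it was also among the 10 described transcripts most like the A homolog (r = 0.899). BnaAnng35150D was at 67.3, 40.8 and 51.6 FPKM in the vasculature and 2.03 and 1.03 FPKM in the cortex, and BnaAnng37050D at 40.1, 36.8 and 20.4 FPKM and 2.07 and 1.40 FPKM.

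On the scale of log2((cortex + 1)/(vasculature + 1)) of the mean FPKM, the A homolog was at 3.36 and the C homolog at -2.41, a gap of 5.77. The median gap over the 145 genes was 0.69, and GA3OX1 ranked 3, after AT1G70830 (7.65) and AT4G23600 (7.20). The first of these had its highest levels in epidermis and vasculature.

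**Figure D4:**
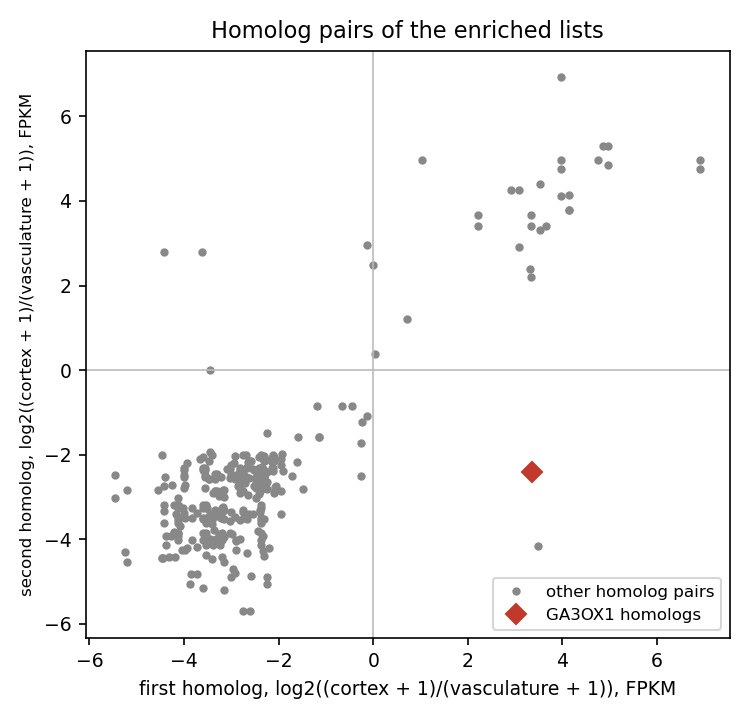
Homolog pairs of the enriched lists (310 pairs from 145 Arabidopsis genes), each point a pair, with log2((cortex + 1)/(vasculature + 1)) of the mean FPKM of the first homolog on the x axis and of the second on the y axis. Pairs with both homologs higher in the vasculature lie at the lower left and those with both higher in the cortex at the upper right. The GA3OX1 pair (diamond, 3.36 and -2.41) lies away from both, at the lower right.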

How the data were processed

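Libraries of amplified RNA from laser-microdissected funiculi were sequenced as 50 bp single-end reads. Alignment by the authors used TopHat2 2.0.13 and the Genoscope B. napus genome, and the deposited FPKM values came from Cufflinks 2.2.1, per the labels and the study's methods. The treatment of reads with several loci and the use of strand are not given in the sources used here. All 11 columns of the table were matched to libraries (0 unmatched).

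The 2 homologs, gene lists and comparisons were chosen with earlier results of these data known. Fragments were recovered as the smallest whole numbers (tolerance 0.05 fragments) from FPKM and the relative depths. Tissues were compared with limma 3.58.1 in R 4.3.3 (eBayes with trend, log2(FPKM + 1), tissue mean of at least 1 FPKM), tested on simulated data. CuffDiff, which the study names, needs reads. Whether same-numbered libraries share plants is not stated, and p-values measure the spread between pools. Named transcripts are both homologs, those of the gibberellin list, the 5 most like each homolog and the 10 most like with a description, the nearest IDs, the split homolog sets, and list members as examples with the highest mean first. Python 3.11.15, numpy 2.4.6, pandas 2.3.3 and scipy 1.17.1 were used. Alternatives changed the pseudocount, the filter, the scale (each library to the same summed FPKM, added after seeing the data), the libraries, the measure of likeness, the replicate block and the variance trend.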

Additional observations from a re-analysis of the deposited data

Results flagged for a closer look

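WF2 was used in no group mean. In it BnaA06g10250D was at 99.4 FPKM, from 124 fragments, where a count of 0 would allow up to 2.41 FPKM (3 fragments, counting error only). With every library scaled to the same summed FPKM it was at 45.8% of its cortex mean there. BnaC05g11920D was at 2.45 FPKM in the same library, from 3 fragments, which equals the limit for its own length.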

How the results depend on the processing

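No level ratio of the homologs and no called difference of GASA6, GASA10 or TIP1;1 changed its sign under any alternative tried. Counts and shares have no sign. By the rule set for each result, 212 of 234 values stayed the same. Level ratios had to stay within the root of the summed log2(FPKM + 1) variances of both tissues, and shares within 1 SD. Counts had to stay within 1.5 times and the differences of named transcripts on their side of the threshold. A list of the transcripts most like a homolog had to keep at least 4 of its first 5. The SD of the WF share was 22.5%, so values on both sides of an equal share counted as within it. The cortex against epidermis ratio of the A homolog (log2 2.88) ranged from 2.53 to 3.42 on leaving out each library in turn, and the vasculature against cortex ratio of the C homolog (log2 2.53) from 1.95 to 3.50. The share of the A homolog ranged over 52.8 to 69.6% (epidermis), 82.0 to 92.0% (cortex), 6.21 to 14.0% (vasculature) and 18.6 to 50.4% (WF), and was 69.4% in WF with WF2. Scaling every library to the same summed FPKM, added after seeing the data, gave log2 ratios of 2.92 and 2.62 and a share of 52.0% in WF with WF2.

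The calls of the 3 lists numbered 1 for epidermis against cortex, and 2 at a tissue mean of at least 5 FPKM, 2 with WF1 and WF3 in the fit and 1 to 2 without single libraries. For epidermis against vasculature they numbered 9 (7 to 10 without single libraries) and for cortex against vasculature 8 (5 to 7). With the replicate block they were 0, 8 and 6. The block took the call of TIP1;1 (BnaAnng24130D) between epidermis and cortex (log2 difference -3.67, limma adjusted p = 0.0844, over all alternatives 0.00191 to 0.0844). Of 7 same-numbered pairs of libraries, 2 had deviations correlated over 0.1 (r from -0.0959 to 0.203). Deviations from a mean of 2 or 3 libraries are tied to each other, so these values cannot decide whether same-numbered libraries share plants. For GASA6 between epidermis and cortex the limma adjusted p ran from 0.0264 to 0.157 and passed under 2 of 15 alternatives. Over all transcripts tested, the calls for epidermis against cortex numbered 88 and from 3 (replicate block) to 471 (without cortex 1), and those for cortex against vasculature 4518 and from 2814 to 5123.

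Of the 5 transcripts most like the A homolog, Spearman's rho kept 2, the 8 tissue libraries alone 2 and all 11 libraries 0. For the C homolog the numbers were 0, 2 and 2, and 3 with a pseudocount of 0.1 FPKM. The 5 split homolog sets numbered 4 to 7 under the alternatives and held GA3OX1 in each. Depth limits the epidermis, where each homolog rested on 9 to 44 fragments.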
